A study of Mus musculus with 20 samples.

Results

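The receptors described here are 9 genes of myeloid cells, 6 C-type lectins (Clec4e, Clec4d, Clec4n, Clec5a, Clec7a and Clec12a) and 3 CD300 receptors (Cd300lf, Cd300a and Cd300lb). They were chosen by gene name, with earlier results of these data known. All 9 were on the array, among 27845 gene names, with 13 of its 41174 gene probes. Of these probes 9, from 7 of the 9 genes, were among the 20957 probes bright enough to be tested. Whole blood came from 4 female C57Bl/6 mice (numbers 305, 310, 315 and 320), bled before (day 0) and again 10, 15, 20 and 25 days after Hepa1-6 cells, a mouse hepatoma line, were placed under the skin. All mice thus carried the same treatment, and no untreated mice followed over the same days were analysed here. On each of the 20 Agilent arrays the blood sample of 1 mouse carried Cy5, and RNA from blood of C57Bl/6 mice without treatment, the same on all arrays, carried Cy3, so every value below is log2(Cy5/Cy3), the level in the mouse relative to that reference blood.

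C-type lectins of this group sit on the surface of neutrophils, monocytes, macrophages and dendritic cells and bind sugars or lipids of microbes and of damaged cells. Clec4e, Clec4d and Clec4n signal through the adaptor Fcer1g, Clec5a through the adaptors Tyrobp and Hcst, and Clec7a through a motif in its own tail, and the kinase Syk and the complex of Card9, Bcl10 and Malt1 carry these signals on to NF-kB. Clec12a and the CD300 receptors Cd300lf and Cd300a carry inhibitory motifs that recruit the phosphatases Ptpn6 and Ptpn11, while Cd300lb is an activating receptor that pairs with Tyrobp.

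Every slide held the arrays of a single day, so day and slide cannot be told apart. Net intensity is the spot signal less the scanner offset. Its median in Cy5 was 48.1 to 66.5 on the later days and 84.2 to 111.9 on day 0. In Cy3, the reference that is the same on all arrays, it was 30.1 to 41.9 on the later days and 103.2 to 140.8 on day 0. The reference too was thus dimmer on the later days. Between 38.1% and 52.2% of the probes were well above background. The day 0 array of mouse 320 stood apart, with a mean correlation over all probes tested of 0.392 with the other day 0 arrays, against 0.588 among those, and of 0.609 with the day 10 arrays; without it the same numbers of receptor probes passed in each comparison with day 0. In whole blood, fewer cells of a type and less RNA per cell cannot be told apart. In all tests, passed means an adjusted p under 0.05 in limma over all 20957 probes.

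The lectin genes with a window lie on chromosome 6, where Clec4d lies close to Clec4e and Clec12a close to Clec7a, and Clec5a lies far from both pairs. The CD300 genes lie on chromosome 11. RefSeq start-site windows of 300 bases, on the build GRCm38.p6, were at hand for 8 of the 9 genes, Clec4n being the exception. Those of the 4 genes that fell most in the data below are shown. They lie at chr6:123289822-123290121 on the minus strand for Clec4e, chr6:123261857-123262156 on the plus strand for Clec4d, chr6:129472730-129473029 on the minus strand for Clec7a and chr11:115133943-115134242 on the minus strand for Cd300lf. Capitals mark GAGGAA, recognised by the myeloid factor PU.1, and TTGCNNAA, recognised by C/EBP factors, on either strand.
Clec4e: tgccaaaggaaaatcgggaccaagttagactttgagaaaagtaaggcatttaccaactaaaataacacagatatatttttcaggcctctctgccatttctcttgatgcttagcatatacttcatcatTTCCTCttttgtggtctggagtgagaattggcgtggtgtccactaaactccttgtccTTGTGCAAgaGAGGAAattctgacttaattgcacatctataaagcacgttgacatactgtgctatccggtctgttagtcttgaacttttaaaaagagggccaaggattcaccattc
Clec4d: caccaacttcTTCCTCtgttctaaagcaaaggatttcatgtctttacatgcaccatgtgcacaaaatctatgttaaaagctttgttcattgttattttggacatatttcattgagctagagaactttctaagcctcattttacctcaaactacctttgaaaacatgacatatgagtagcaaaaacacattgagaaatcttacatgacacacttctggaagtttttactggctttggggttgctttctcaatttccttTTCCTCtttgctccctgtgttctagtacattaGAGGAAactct
Clec7a: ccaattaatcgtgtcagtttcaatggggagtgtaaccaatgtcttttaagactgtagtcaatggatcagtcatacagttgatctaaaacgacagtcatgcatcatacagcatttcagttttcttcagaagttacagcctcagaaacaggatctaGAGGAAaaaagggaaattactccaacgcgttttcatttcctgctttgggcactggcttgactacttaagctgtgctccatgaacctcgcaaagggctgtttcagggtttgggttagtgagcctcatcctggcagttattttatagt
Cd300lf: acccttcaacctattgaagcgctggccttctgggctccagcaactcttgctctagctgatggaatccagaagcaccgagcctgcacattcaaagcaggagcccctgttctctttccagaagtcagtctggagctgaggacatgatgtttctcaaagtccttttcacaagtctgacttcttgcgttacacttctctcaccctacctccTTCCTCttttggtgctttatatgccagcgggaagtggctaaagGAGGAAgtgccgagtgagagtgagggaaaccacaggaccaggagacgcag
GAGGAA occurred on either strand in the windows of 7 of the 8 genes with a window, Clec4e, Clec4d, Clec5a, Clec7a, Clec12a, Cd300lf and Cd300a. It is thus not particular to the 4 shown. It occurred in 28.3% of the 32851 windows of the whole table. TTGCNNAA occurred in those of Clec4e, Clec12a and Cd300a, and in 10.8% of all windows. In the Clec4e window the matches nearest the start site, 66 and 56 bases before it, stand side by side without overlap. A match describes letters in the window and not a bound site.

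In the blood of the inoculated mice, 4 of the receptors were lower than before inoculation: Cd300lf, Clec7a, Clec4d and Clec4e. On day 10 against day 0, 4 of the 9 receptor probes tested fell and 1 rose, while 7.11% of all probes fell and 4.07% rose. On day 15, 3 of 9 fell, beside 3.82% of all probes, and on day 20, 4 of 9 fell, beside 1.97% of all probes. On day 25 none of the 9 passed, beside 0.148% of all probes in either direction. An unadjusted p under 0.05 (limma) was found for 4 of the 9 and for 3767 of all 20957 probes. The median change of the 9 probes was -0.19, -0.20, -0.23 and -0.04 on days 10, 15, 20 and 25, where that of all probes lay between -0.02 and 0.00. All arrays of the later day lay below all arrays of day 0 for 5, 6, 5 and 2 of the 9 probes on days 10, 15, 20 and 25, as they did for 12%, 14%, 6.31% and 3.81% of all probes. Over any of the later days 5 of the 9 passed limma's F test, as did 26.9% of all probes.

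**Figure D1:**
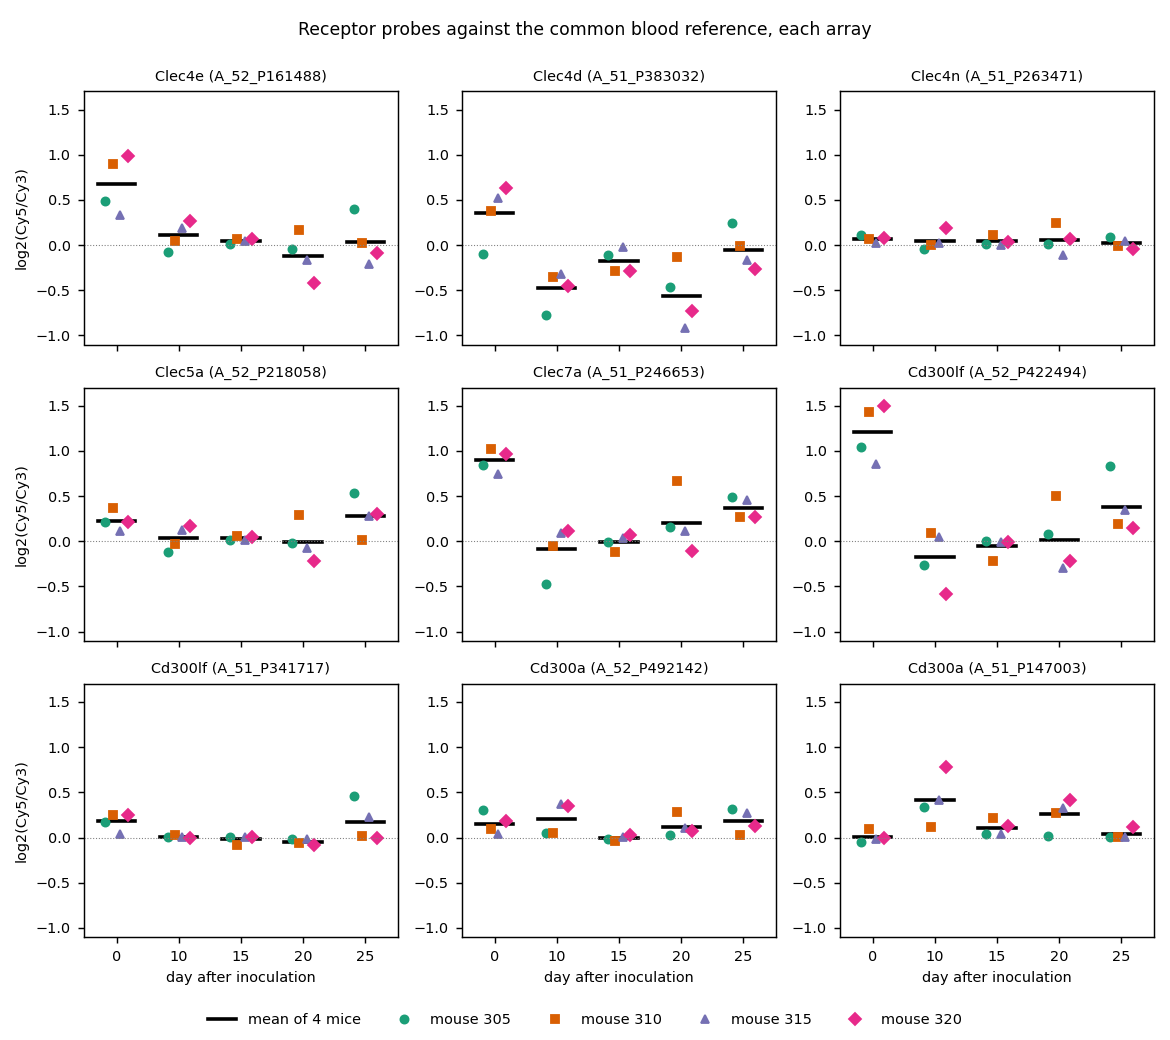
Log2(Cy5/Cy3) of the 9 receptor probes tested, by day after inoculation, with 1 symbol for each of the 4 mice and a bar for their mean. The day 0 values of Cd300lf (A_52_P422494), Clec7a and Clec4e lie above every value of days 10, 15 and 20, whereas those of Clec4n stay near 0 on all days.

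Cd300lf, an inhibitory receptor for phosphatidylserine and ceramide on neutrophils and monocytes, changed most among the receptors. Its brighter probe, A_52_P422494, stood at 1.05, 1.44, 0.85 and 1.50 in mice 305, 310, 315 and 320 on day 0. The same mice, in the same order here and below, had -0.26, 0.10, 0.05 and -0.58 on day 10. On day 15 mouse 310 was at -0.21 and the other 3 lay between -0.01 and 0.00. Day 20 gave 0.08, 0.50, -0.29 and -0.22, and day 25 gave 0.84, 0.19, 0.35 and 0.14. All values of every later day were below the lowest of day 0, though mouse 305 on day 25 came close to it. The probe fell by 1.38 on day 10 (limma, adjusted p = 0.000833), by 1.26 on day 15 (adjusted p = 0.000987) and by 1.19 on day 20 (adjusted p = 0.00352), each with an SE of 0.19. In linear terms this is 2.61-, 2.40- and 2.29-fold lower than day 0. On day 25 the difference was -0.83 (95% interval -1.23 to -0.43) and did not pass (adjusted p = 0.0725). With mouse as a block it did pass (adjusted p = 0.0464).

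Before any normalization the Cy5 intensity of that probe was also highest on day 0. It ran between 3011 and 4206 before inoculation. On days 10 and 15 its highest values were 556 and 429 and its lowest 337 and 242. Day 20 spanned 289 to 639, and day 25 spanned 812 to 2430. These raw gaps are wider than the normalized changes, and raw intensities of other genes were lower too. The 23 tested genes for adaptors and signalling proteins summed to between 11416 and 14936 on day 15, against 59465 to 103516 on day 0. The Cy3 reference was also dimmer on the later slides. For this probe it ran from 491 to 583 on day 0 and from 276 to 331 on day 15. A second, dimmer probe of Cd300lf, A_51_P341717, gave 0.17, 0.25, 0.04 and 0.25 on day 0 and lay between -0.09 and 0.03 on days 10, 15 and 20. Those ranges did not overlap on any of the 3 days, yet its changes of -0.17, -0.19 and -0.22 did not pass (adjusted p = 0.152, 0.184 and 0.0953). Its Cy5 intensity averaged 259 ± 24.3 on day 0 and 83.0 ± 7.15, 63.1 ± 5.98 and 67.5 ± 3.79 on days 10, 15 and 20 (SD, n = 4 each), close to the array medians. With an offset of 10 in place of 50 its changes were -0.20, -0.22 and -0.28 and did not pass either. In the log ratio deposited from the scanner software, whose background correction and dye normalization also differ, the probe differed from day 0 by -1.26, -1.46 and -1.70 and passed on all 3 days (limma, adjusted p = 0.00163, 0.000276 and 0.000916), where the median of all probes moved by -0.18, -0.20 and -0.12. Which of these steps makes the difference was not tested.

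Clec7a, the phagocyte receptor for beta-glucans of fungi, was the next most changed. It had 0.85, 1.02, 0.75 and 0.97 on day 0 and -0.48, -0.05, 0.10 and 0.11 on day 10. On day 15 it lay between -0.11 and 0.07, on day 20 it gave 0.15, 0.67, 0.11 and -0.10, and on day 25 it gave 0.49, 0.27, 0.45 and 0.27. No value of a later day reached the lowest of day 0. Clec7a fell by 0.98 on day 10 (limma, adjusted p = 0.000854), by 0.90 on day 15 (adjusted p = 0.000986) and by 0.69 on day 20 (adjusted p = 0.0124), each with an SE of 0.14, or 1.97-, 1.87- and 1.61-fold. The day 20 call was lost without the day 20 array of mouse 315 (adjusted p = 0.0598) or of mouse 320 (adjusted p = 0.0538). Day 25 differed from day 0 by -0.53 (95% interval -0.81 to -0.24, adjusted p = 0.0961).

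Clec4d and Clec4e form a pair of receptors for mycobacterial glycolipids, and Clec4e also binds a nuclear protein released by dead cells. Clec4d had -0.10, 0.38, 0.52 and 0.63 on day 0, where mouse 305 was well below the others. It had -0.78, -0.35, -0.32 and -0.45 on day 10, -0.10, -0.29, -0.02 and -0.29 on day 15, and -0.46, -0.13, -0.91 and -0.73 on day 20. It fell by 0.83 on day 10 (limma, adjusted p = 0.00524) and by 0.92 on day 20 (adjusted p = 0.00816), with an SE of 0.17 and without overlap with day 0. On day 15 the groups overlapped and the change of -0.53 did not pass (adjusted p = 0.0742), but it did without the day 0 array of mouse 305 (-0.68, adjusted p = 0.0231). On day 25 the values were 0.24, -0.01, -0.17 and -0.26, a change of -0.41 that did not pass (adjusted p = 0.215).

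Clec4e had 0.48, 0.90, 0.33 and 0.98 on day 0, with mice 310 and 320 high. On day 10 it had -0.07, 0.05, 0.19 and 0.27, on day 15 it lay between 0.01 and 0.06, and on day 20 it had -0.04, 0.16, -0.17 and -0.42. None of these values reached the lowest of day 0. Clec4e fell by 0.57 on day 10 (limma, adjusted p = 0.0193), by 0.63 on day 15 (adjusted p = 0.0144) and by 0.79 on day 20 (adjusted p = 0.0092), each with an SE of 0.15, or 1.48-, 1.55- and 1.73-fold. On day 25 mouse 305 was back at 0.40 while the others had 0.03, -0.20 and -0.09. The change of -0.64 on day 25 did not pass (adjusted p = 0.0689) and did so with mouse as a block (adjusted p = 0.0458). Without the day 0 array of mouse 310 the calls of days 10 and 15 were lost (adjusted p = 0.0634 and 0.0553), as was that of day 10 without the day 10 array of mouse 305 (adjusted p = 0.0641). In the log ratio of the scanner software, the means of Clec4e were between -0.30 and 0.19 on the later days and 1.54 ± 0.435 on day 0, a larger gap than with normexp and loess.

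**Figure D2:**
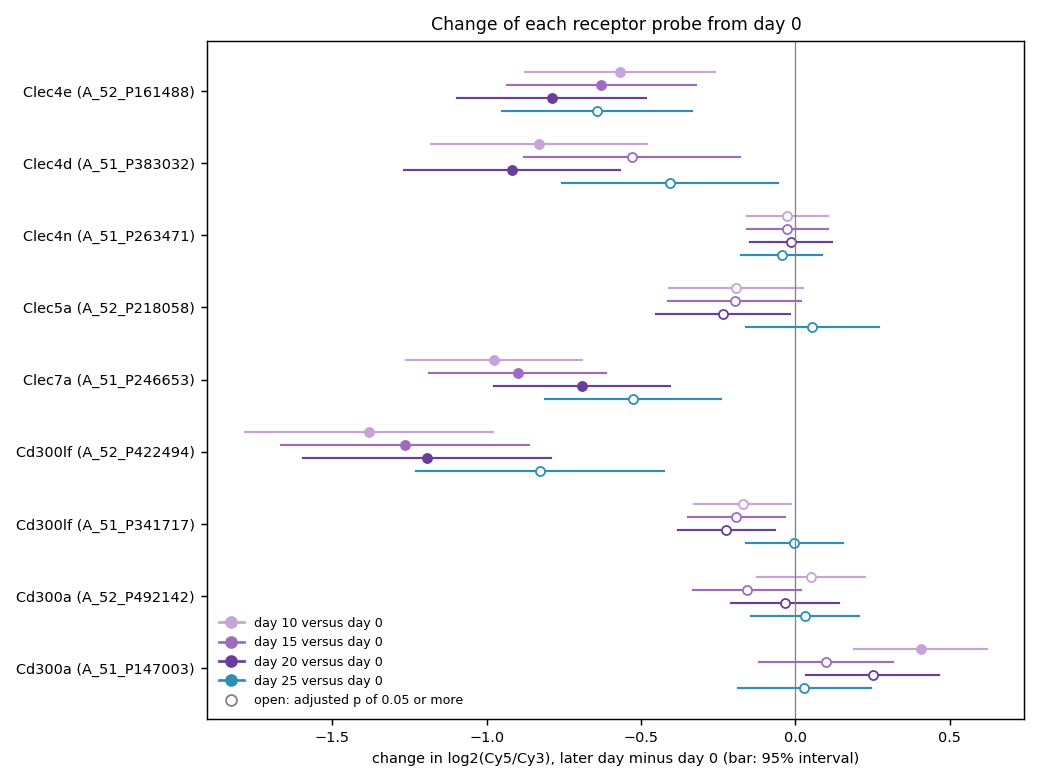
Change of each receptor probe in log2(Cy5/Cy3), days 10, 15, 20 and 25 minus day 0, with 95% intervals from the limma fit of 4 mice a day, and open symbols where the adjusted p was 0.05 or more. Clec4e, Clec4d, Clec7a and the brighter Cd300lf probe lie left of 0 on all 4 days, and Cd300a (A_51_P147003) lies right of 0 with its largest value, 0.41, on day 10.

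The remaining lectins were dim. Clec4n, a receptor for fungal mannans, stayed between -0.11 and 0.24 on all 20 arrays, and its changes from day 0 were between -0.04 and -0.01, none of which passed. Its Cy5 intensity averaged between 66.4 and 90.6 on the later days and 178 ± 33.5 on day 0, and the 95% interval of its change on day 25 was -0.18 to 0.09. In the log ratio of the scanner software Clec4n was not flat. It averaged 0.77 on day 0 and 0.15, 0.33, 0.56 and 0.06 on days 10, 15, 20 and 25. In that ratio the median of all probes moved from day 0 by -0.18, -0.20, -0.12 and -0.05. Clec5a, which binds flaviviruses and is abundant on neutrophils and monocytes, had -0.02, 0.29, -0.07 and -0.22 on day 20 in its brightest probe, A_52_P218058, against 0.21, 0.37, 0.12 and 0.22 on day 0. Mouse 310 alone overlapped with day 0. Its changes of -0.19, -0.20 and -0.23 on days 10, 15 and 20 did not pass (adjusted p = 0.240, 0.420 and 0.180).

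Clec5a passed on days 10, 15 and 20 under some other ways of processing. Its Cy5 intensity was 467 ± 111 on day 0, 127 ± 36.0 on day 10, 83.5 ± 6.26 on day 15, 91.8 ± 24.7 on day 20 and 206 ± 41.7 on day 25 (SD, n = 4 each). In the log ratio of the scanner software it fell by 1.44, 1.002 and 1.38 on days 10, 15 and 20 (limma, adjusted p = 0.00146, 0.00696 and 0.00521), and without background correction by 0.53, 0.41 and 0.54 (adjusted p = 0.000639, 0.00302 and 0.00158). Both settings called many probes on these days. Of all 20957 probes, 6368, 9152 and 2473 passed in the scanner ratio, where their median moved by -0.18, -0.20 and -0.12. Without background correction 8262, 8280 and 3741 passed. An offset of 10 alone gave Clec5a changes of -0.21, -0.22 and -0.27, none of which passed. The other 2 Clec5a probes, the probe of Clec12a, an inhibitory receptor for uric acid crystals, and that of Cd300lb, a receptor involved in the uptake of dying cells, were well above background on 2, 0, 1 and 0 of the 20 arrays. They were not tested, and no fold can be given for them.

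Cd300a, an inhibitory receptor for phosphatidylserine on most leukocytes, had a pair of probes that disagreed. Probe A_51_P147003 had 0.34, 0.11, 0.41 and 0.78 on day 10, with mouse 320 highest, against -0.05, 0.09, -0.01 and -0.01 on day 0. The days did not overlap, and the probe rose by 0.41 (SE 0.10, limma, adjusted p = 0.018), or 1.33-fold. That call was lost without the day 0 array of mouse 305 (adjusted p = 0.0638) or the day 10 array of mouse 320 (adjusted p = 0.0529). Its changes of 0.10, 0.25 and 0.03 on days 15, 20 and 25 did not pass. Probe A_52_P492142 had 0.05, 0.05, 0.37 and 0.35 on day 10, which overlap with 0.30, 0.09, 0.04 and 0.19 on day 0, and its changes of 0.05, -0.16, -0.03 and 0.03 on the 4 later days did not pass. In the log ratio of the scanner software the probes went opposite ways on day 15, by 0.72 for A_51_P147003 (adjusted p = 0.00789) and by -0.77 for A_52_P492142 (adjusted p = 0.00211). The direction for Cd300a thus rests on the probe, and the difference between the probes was not tested.

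Day 25 was set against days 10 and 20 to see whether the receptors moved back. Against day 10, 2 of 9 probes were higher and 1 lower (33.3% in all), beside 17.7% of all probes higher, 13.7% lower and 31.4% in all. Against day 20, 3 of 9 were higher (33.3%), beside 11% of all probes higher and 23.2% in either direction. The first of these shares is near that of the array as a whole. Markers of other cells also differed: on day 25 against day 10, 7 of 8 erythroid markers were lower (list median -1.33) and 5 of 9 T cell markers and 1 of 11 neutrophil markers higher, and against day 20, 6 of 8 erythroid markers were lower and 1 higher, with 2 of 9 T cell and 2 of 11 neutrophil markers higher. Their part in the receptor values was not tested. Clec7a was 0.45 higher on day 25 than on day 10 (limma, adjusted p = 0.0181) and Cd300lf (A_52_P422494) 0.55 higher (adjusted p = 0.0349), each higher in 4 of 4 mice, while Cd300a (A_51_P147003) fell by 0.38 (adjusted p = 0.0106). Against day 20, Clec4d rose by 0.51 (adjusted p = 0.0353), the dimmer Cd300lf probe by 0.22 (adjusted p = 0.0424) and Clec5a by 0.29 (adjusted p = 0.0493). Clec4e gave -0.07 against day 10 and 0.15 against day 20, neither of which passed. The 2 higher calls against day 10 were lost without the day 10 array of mouse 305 (Clec7a adjusted p = 0.0689, Cd300lf 0.0745) and, counting every array left out in turn, in 3 (Clec7a) and 4 (Cd300lf) of 20 fits. Those against day 20 were lost in 5 of 20 such fits for Clec4d, 10 for the dimmer Cd300lf probe and 16 for Clec5a, with adjusted p up to 0.123, 0.136 and 0.163.

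Most receptor probes varied in the same direction across mice within a day. With day means removed, 33 of 36 pairs of probes had a correlation above 0, with a median of 0.46 and a range of -0.45 to 0.82. The lowest was that of Cd300a (A_51_P147003) with the brighter Cd300lf probe. Over the 20 arrays Clec7a and the brighter Cd300lf probe correlated at r = 0.905, and at 0.600 once day means were removed, and Clec4e and Clec4d at 0.775 and 0.621. Both probes of a pair share the array, the slide and the dyes, and these values are descriptions only. The mean of the 7 receptor genes, each by its brightest probe, was 0.41, 0.61, 0.38 and 0.65 on day 0, and mouse 310 stood out on day 20 with 0.29 where the other mice had -0.04, -0.19 and -0.22. Mouse 305 stood out on day 25 with 0.41 where the others had 0.07, 0.15 and 0.06.

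The list of adaptors and signalling genes below the receptors held 23 genes with a tested probe, of 24. The gene missing was Card9, which was not found among the probe names. On days 10 and 15, 8 of the 23 were lower than on day 0 and none was higher, on day 20 it was 2, and on day 25 none passed. Of all probes 7.11%, 3.82% and 1.97% were lower on days 10, 15 and 20. The median change of the list was -0.14, -0.24 and -0.16 on days 10, 15 and 20, where that of all genes was about -0.02. Tyrobp, the adaptor of Clec5a and Cd300lb, fell by 0.75 on day 10 (limma, adjusted p = 0.00856) and by 0.67 on day 15 (adjusted p = 0.0199), and was 0.73 higher on day 25 than on day 10 (adjusted p = 0.00315). Hcst, the other adaptor of Clec5a, fell by 0.30 and 0.34 on days 10 and 15 (adjusted p = 0.00587 and 0.0033), although in the Cy5 channel alone its day 10 change was 0.12. Bcl10, the scaffold between Card9 and Malt1, fell by 0.46, 0.38 and 0.42 on days 10, 15 and 20 (adjusted p = 0.00115, 0.00313 and 0.00463).

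The Src family kinase Fgr fell on all 3 days, by 0.44, 0.50 and 0.54 (limma, adjusted p = 0.0106, 0.00612 and 0.0092). Its relative Lyn fell on day 15, by 0.48 (adjusted p = 0.0149). The linker Grb2 fell by 0.51 and 0.33 on days 10 and 15 (adjusted p = 0.00116 and 0.0137). Phospholipase Plcg2 fell by 0.45 and the lipid phosphatase Inpp5d by 0.30 on day 10 (adjusted p = 0.0132 and 0.0374). Several of these calls were lost when 1 of the 20 arrays was left out: that of Inpp5d in 5 of 20 fits (adjusted p up to 0.122), that of Tyrobp on day 15 in 5, those of Lyn and of Grb2 on day 15 in 2 each, and those of Plcg2 and of Fgr on day 10 in 1 each. Leaving out an array or changing the processing ended the Inpp5d call in 10 of 31 alternatives and the Plcg2 call in 5. Syk and Fcer1g did not pass on any day. Day 25 against day 10 gave 7 of 23 genes higher and none lower, where 17.7% of all probes were higher.

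**Figure D3:**
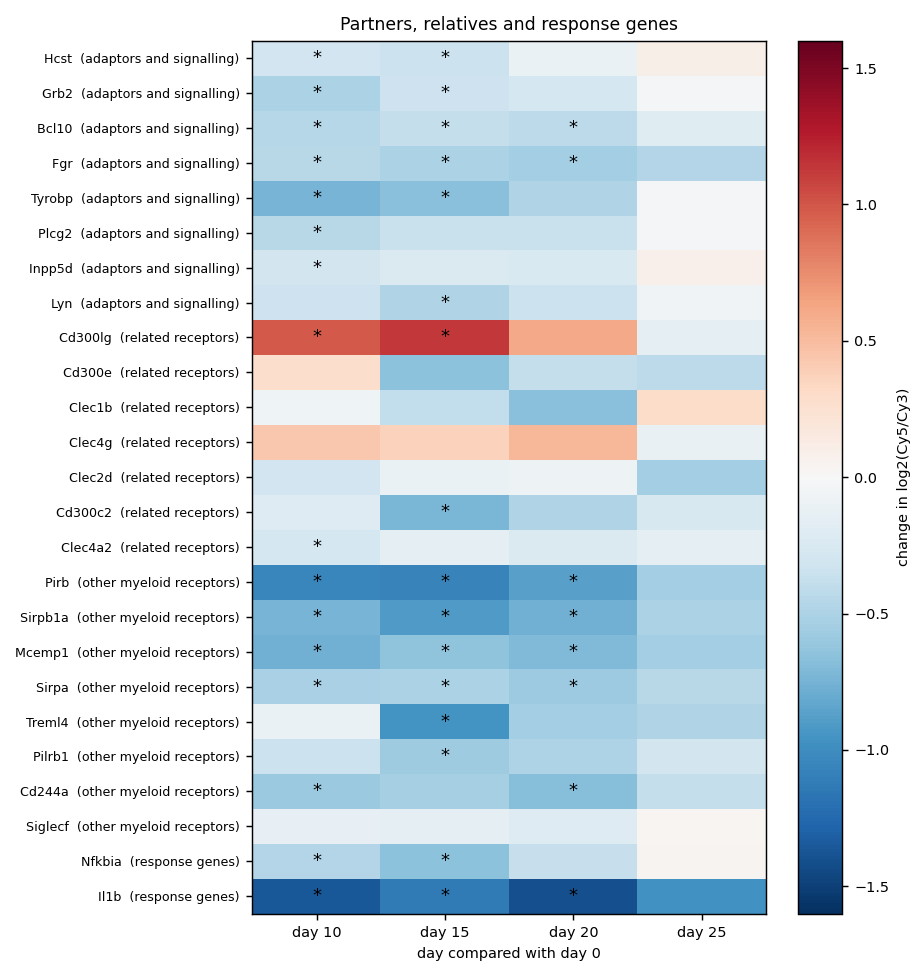
Change in log2(Cy5/Cy3) of the genes past the F test in 4 lists, days 10, 15, 20 and 25 minus day 0 (4 mice a day); blue is lower, red is higher, and an asterisk marks an adjusted p under 0.05. Il1b on day 20, at -1.41, is the darkest cell, and Cd300lg on days 10 and 15 is the only gene of the lists with asterisks in red, where median centring gave -0.07 and 0.08 relative to the median of all probes.

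Relatives from both families did not move as one. Of 12 tested genes of 24, 1 was lower and 1 higher on day 10, 1 lower and 1 higher on day 15, and none passed on days 20 and 25. Of all probes 7.11% were lower and 4.07% higher on day 10. On day 15, 3.82% of all probes were lower and 424 of 20957 higher. Clec4a2, an inhibitory lectin, fell by 0.28 on day 10 (limma, adjusted p = 0.015), and the CD300 gene Cd300c2 fell by 0.73 on day 15 (adjusted p = 0.0185). Cd300lg, which is best known from endothelium, rose by 0.98 and 1.13 on days 10 and 15 (adjusted p = 0.0042 and 0.00183) with loess, and gave -0.46 and -0.21 when arrays were centred on their median. That setting moved the median of all probes by -0.39 and -0.29, and relative to it Cd300lg stood at -0.07 and 0.08. The calls of Clec4a2 and Cd300c2 were each lost in 2 of 20 fits that left out 1 array (adjusted p up to 0.0703 and 0.0782). Cd300e, the platelet receptor Clec1b, Clec4g and Clec2d passed the F test but none of the comparisons with day 0.

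A further list held surface proteins of myeloid cells, most of them immunoglobulin-like receptors. Of its 18 tested genes, 6 were lower on day 10, 6 on day 15, 5 on day 20 and none on day 25, and none was higher. The shares of all probes that were lower were 7.11%, 3.82% and 1.97% on days 10, 15 and 20. The inhibitory receptor Pirb fell by 1.05, 1.07 and 0.87 (limma, adjusted p = 0.000833, 0.000485 and 0.00385) and Sirpb1a, an activating partner of Tyrobp, by 0.75, 0.91 and 0.77 (adjusted p = 0.00631, 0.0021 and 0.0144). Mcemp1, a membrane protein of granulocytes and mast cells, fell by 0.77, 0.64 and 0.71 (adjusted p = 0.00337, 0.0103 and 0.0126), and Sirpa, the receptor for CD47, by 0.52, 0.51 and 0.58 (adjusted p = 0.00928, 0.013 and 0.0143). Cd244a passed on days 10 and 20, Treml4 and Pilrb1 passed on day 15, and Siglecf passed the F test but no comparison with day 0. With 1 of the 20 arrays left out, the Cd244a calls were lost in 4 (day 10) and 8 (day 20) fits, with adjusted p up to 0.142 and 0.137. On day 20 the Sirpa call was lost in 3 fits and those of Sirpb1a and Mcemp1 in 2 each, and on day 15 those of Sirpa and Pilrb1 in 1 each.

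Of 21 genes listed as responses to Clec4e and Clec7a signalling, 15 had a tested probe, among them Malt1, which is on the adaptor list too. Il23a, Cxcl1, Cxcl2, Ptgs2, Egr3 and Csf3 were not tested. Most of the 15 did not pass: 2 fell on day 10, 2 on day 15, 1 on day 20 and none on day 25. Of all probes 7.11%, 3.82% and 1.97% fell on days 10, 15 and 20. The list's median change lay between -0.03 and 0.04 on the 4 days. The cytokine gene Il1b fell by 1.36, 1.14 and 1.41 on days 10, 15 and 20 (limma, adjusted p = 0.00425, 0.0133 and 0.0092). Nfkbia, the inhibitor and target of NF-kB, fell by 0.47 and 0.66 on days 10 and 15 (adjusted p = 0.0238 and 0.00391) and was 0.51 higher on day 25 than on day 10 (adjusted p = 0.00565). Its day 10 call was lost in 5 of the 20 fits that left out 1 array (adjusted p up to 0.0991).

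Markers of neutrophils moved over the same days as the receptors. Ly6g was not found among the probe names, and of the other 11 markers, all tested, 7 were lower on day 10, 7 on day 15, 8 on day 20 and 2 on day 25, and none was higher. Of all probes 7.11%, 3.82% and 1.97% were lower on days 10, 15 and 20, and 0.148% passed in either direction on day 25. The 2 markers lower on day 25, singled out after their values were seen, were S100a9 (-1.42) and S100a8 (-1.19), both at adjusted p = 0.0467 (limma). The summed Cy5 intensity of all 11 neutrophil markers was 248462 to 363326 on day 0, 34333 to 69600 on day 10, 23632 to 32025 on day 15, 20853 to 37918 on day 20 and 68945 to 146849 on day 25. Raw sums of other lists were lower too: on day 15 against day 0, monocyte markers summed to between 4190 and 6393 against 21837 to 45172, T cell markers to between 5086 and 6829 against 23957 to 56981, and B cell markers to between 7083 and 10625 against 28962 to 63263. The neutrophil list averaged 0.82 ± 0.264 on day 0, and 0.01 ± 0.179, -0.03 ± 0.0906, -0.14 ± 0.285 and 0.23 ± 0.179 on days 10, 15, 20 and 25 (SD, n = 4). Mice 310 on day 20 (0.23) and 305 on day 25 (0.49) stood out here too. On day 20 mouse 310 was also highest in monocyte markers (0.36), other myeloid receptors (0.22), related receptors (0.20) and response genes (0.13). The same held for adaptors and signalling genes (-0.04) and platelet markers (-0.63). It did not hold for T cell, B cell, dendritic cell and erythroid markers. Of 10 monocyte markers none passed on days 10, 20 and 25 and 1 (Adgre1) fell on day 15. T cell markers were lower for 1 of 9 on day 10 and 4 of 9 on day 15. Of 8 tested erythroid markers, which did not include Hbb-b1 and Alas2, 2 were higher on day 10 and 1 on day 15. Of all probes 4.07% were higher on day 10 and 424 of 20957 on day 15. B cell, dendritic cell and platelet lists had at most 1 marker past the test on any day. The part of cell numbers in the receptor values was not tested.

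**Figure D4:**
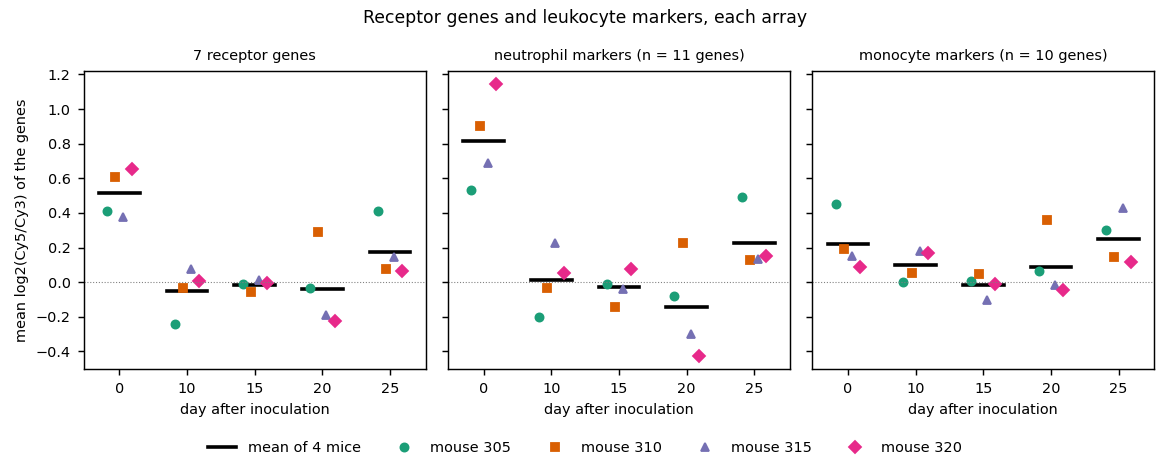
Mean log2(Cy5/Cy3) of the 7 receptor genes, of 11 neutrophil markers and of 10 monocyte markers on each array, by day, with 1 symbol for each mouse and a bar for the mean of 4 mice. Receptors and neutrophil markers are highest on day 0, and in both mouse 310 is highest on day 20 and mouse 305 on day 25. In the monocyte markers mouse 310 is highest on day 20 too (0.36), and mouse 315 on day 25 (0.43).

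The genes most like the mean of the 7 receptor genes, of 12078 other named genes, were Pgd (Pearson r = 0.948 over the 20 arrays, 0.945 with day means removed), Slc40a1 (0.946 and 0.906), Sirpb1a (0.946 and 0.907), Stfa2l1 (0.940 and 0.920), Fpr2 (0.939 and 0.901) and Ugt1a6b (0.937 and 0.870). Pgd encodes an enzyme of the pentose phosphate pathway, Slc40a1 the iron exporter ferroportin, and Fpr2 a formyl peptide receptor that is also on the neutrophil list. These arrays share slides and dyes, and the likeness is a description.

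**Figure D5:**
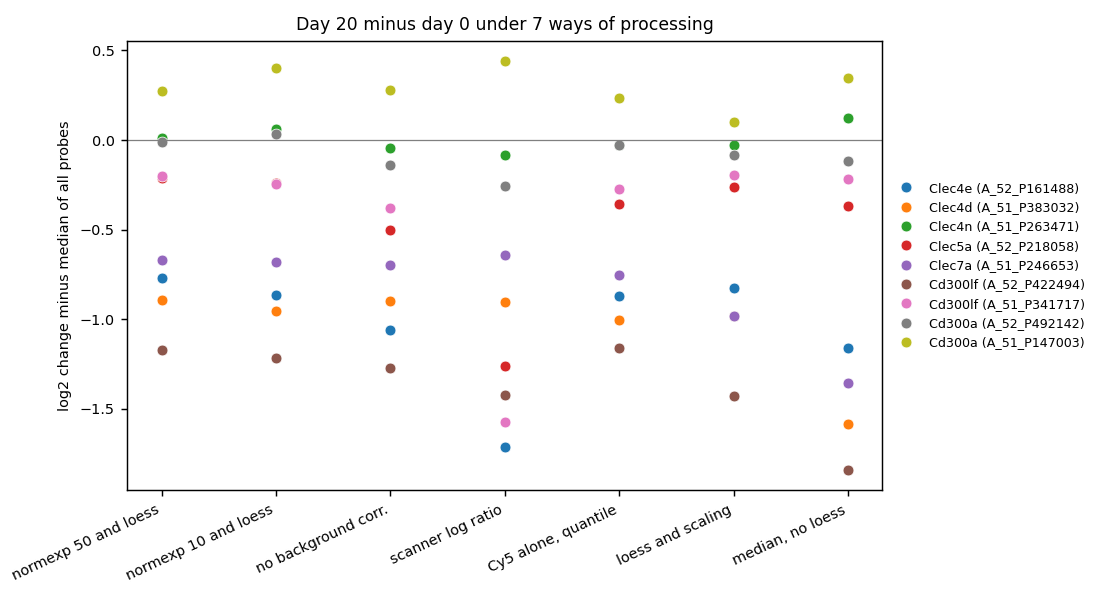
Day 20 minus day 0 change of each receptor probe, less the median change of all probes, under 7 ways of background correction and normalization (points, 4 mice a day). Cd300lf (A_52_P422494), Clec4d, Clec7a and Clec4e are below -0.60 in every column, whereas Clec5a and Cd300lf (A_51_P341717) sit near -0.20 with the offset of 50 and at -1.26 and -1.57 in the scanner log ratio.

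Across ways of processing, the direction of the 4 receptors that fell was the same on days 10, 15 and 20. Relative to the median of all probes, the brighter Cd300lf probe differed from day 0 on day 20 by -1.17 with the offset of 50 and loess, -1.27 without background correction, -1.42 in the scanner log ratio, -1.16 in Cy5 alone and -1.84 with median centring, which itself moved the median of all probes by -0.22. The calls were less stable than the values. With median centring none of the 9 probes passed on days 15 and 20, and with only the arrays of the 2 days compared none passed on day 20, where 0 of 9 stood beside 16 of all probes.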

How the data were processed

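For each spot and dye, the scanner output deposited by the authors gives an intensity as mean signal, local background and net signal, per the file headers. The software was Agilent Feature Extraction in version 9.1.3.1, as the submitters' processing notes state. They also hold that software's log10 ratio of Cy5 over Cy3, deposited after its own background and dye normalization per the file headers; of the values in the table deposited with them, 900360 of 900360 equalled this ratio, with a median of 0 in each column. The log10 ratios, turned to log2, served only as an alternative.

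The mean and background intensities were corrected with normexp (offset 50) and normalized by loess within each array, in limma 3.58.1 (R 4.3.3). Control spots and spots marked non-uniform were left out, and spots of a probe were averaged. Probes entered the test when the scanner called them well above background in Cy5 on 4 arrays or more of the 20, with values on 3 arrays or more of each day. One limma fit (lmFit, eBayes) gave 5 day means with no block, 6 comparisons of days and an F test, two-sided, with Benjamini-Hochberg adjustment over 20957 probes. A dye effect that is equal on all arrays cancels between days, and one that differs between slides does not. The 320 control spots for added RNA, not used to fit the loess, differed between days. Their log2(Cy5/Cy3), averaged over array medians, was -0.59, -0.19, -0.30, -0.65 and -1.22 on days 0, 10, 15, 20 and 25. The part of such shifts in the receptor values was not tested. In simulated data, checked with the same code, the fit recovered the changes put in. That is a check of the code only, and it cannot separate day from slide in these arrays.

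Every probe of the 9 genes was taken. Genes of the lists were named if past the F test, at most 8 a list by F, plus the 6 genes most correlated with the receptor mean. Members and lists were chosen with earlier results of these data known. Probe names came from the table of GRCm38.p6 genes (56.8% of probes by accession, 16.4% by symbol, 7.09% by synonym, the rest as in the files), and promoter windows from RefSeq.

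Samples are paired by mouse number, because the same mice were bled at all 5 times, per the labels. Deviations from day means correlated at a mean of 0.0856 over 40 pairs of arrays of 1 mouse and -0.0291 over 120 pairs of different mice. The alternatives were background correction, offset, normalization, Cy5 alone, the filter, the brightest probe, the mouse block, the arrays in the fit and leaving out each array. The number of arrays limits the precision.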

Additional observations from a re-analysis of the deposited data

Results flagged for a closer look

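Of 45 sets of 4 arrays (9 receptor probes on 5 days), 3 held 1 array whose distance to the others was large for a set of that size, and chance gives about 1 in 20 such sets. Both Cd300lf probes set mouse 310 apart on day 15: A_52_P422494 was at -0.2146 while the other mice lay between -0.01 and 0.00, and A_51_P341717 was at -0.07802 while the others lay between 0.0032 and 0.0107. Cd300a probe A_51_P147003 set mouse 320 apart on day 25, at 0.1142 beside values between 0.0047 and 0.0109. These distances are large because the other 3 arrays nearly coincide.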

How the results depend on the processing

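Of the 9 receptor probes, 5 passed the F test, against 8 in each of Cy5 alone, the scanner log ratio, no background correction and scaling between arrays. On day 15 against day 0 the count of 3 became 8 in Cy5 alone, without background correction and with scaling, 7 in the scanner ratio and 0 with median centring. Of all 20957 probes, 9667, 8280, 6067, 9152 and 3 passed in these settings, in the same order. The count of day 10, 5 (4 lower, 1 higher), became 3 (all lower) with only the arrays of the 2 days, 6 (all lower) with median centring and 7 (6 lower, 1 higher) without background correction, with scaling, in the scanner ratio and in Cy5 alone. In that order, 772, 9220, 8262, 3774, 6368 and 5152 of all probes passed. On day 20 the count of 4 became 7 (6 lower, 1 higher) in Cy5 alone and without background correction and 0 with median centring or only the arrays of the 2 days. Beside these stood 5037, 3741, 3 and 16 of all probes. On day 25 the count of 0 became 2 in Cy5 alone, the scanner ratio, scaling and the mouse block and 5 without background correction. Here 2166, 810, 566, 270 and 2944 of all probes passed, in that order. Day 25 against day 10 gave 3, and 6 with median centring, 5 without background correction, 1 with scaling and 2 with no filter or with the brightest probes. All-probe counts were 10473, 9095 and 4606 of 20957, 6029 of 41142 and 5245 of 15192, in that order. Day 25 against day 20 gave 3, and 0 with median centring, scaling or only the arrays of the 2 days, 1 with no filter and 2 with the mouse block. For all probes these settings gave 0, 134 and 1795 of 20957, 5556 of 41142 and 5166 of 20957. Leaving out each array in turn gave 4 to 7 for the F test, 4 to 6, 2 to 4, 3 to 5 and 0 to 3 for days 10, 15, 20 and 25 against day 0, 1 to 5 against day 10 and 0 to 4 against day 20. The cause of these shifts was not tested. Median centring moved the median of all probes by -0.39, -0.29, 0.39 and 0.24 on days 10 and 15 against day 0 and on day 25 against days 10 and 20, and 8 named values thereby had the other sign: Clec4e on day 25 against day 10 to 0.66 (adjusted p = 0.0473), Cd300a A_51_P147003 to 0.047, Cd300lg to 0.17, Cd300e to 0.27 and Clec4g to 0.43 in the same comparison, Cd300lg on days 10 and 15 to -0.46 and -0.21, and Clec2d on day 25 against day 20 to 0.050. Relative to the median of all probes these 8 were 0.27, -0.34, -0.22, -0.12, 0.04, -0.07, 0.08 and -0.19. In Cy5 alone Hcst on day 10 turned to 0.12 and Inpp5d on day 25 to -0.39. Over the alternatives, the number of all probes passing lay between 772 and 9220 on day 10 (2341 as reported), 3 and 9667 on day 15 (1225), 3 and 5037 on day 20 (602), 0 and 2944 on day 25 (31), 3911 and 10473 for day 25 against day 10 (6584) and 0 and 5562 against day 20 (4866). The mouse block changed no other receptor call than Clec4e and Cd300lf on day 25 and Clec5a on day 25 against day 20 (adjusted p = 0.0663). Leaving out 1 array at a time ended none of the Cd300lf and Clec4d calls against day 0. Signal near background limits Clec4n, Clec5a, Cd300a and the dimmer Cd300lf probe.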
